A study of Mus musculus with 2 samples.

Results

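The interferon-stimulated genes of mIMCD3 cells were examined with and without FGF23, a bone-derived hormone that acts on the kidney. The set held 33 named genes, all of which were among the 19221 genes measured. They were chosen by name as an interferon signature, with earlier results of these data known, and found as the array spots annotated with those symbols. The aim stated for the arrays was to look for actions of FGF23 on tubule cells beyond mineral handling. The cells were mIMCD3, a mouse renal tubule line derived from the inner medulla, given 10 ng/mL of FGF23 for 4 h or left unstimulated, both in the same medium with serum. Both RNAs were hybridised together on each of 2 Agilent two-colour arrays, with FGF23 in the dye Cy3 on array 1 and in Cy5 on array 2. A single cell line was used, and the sources used here do not say whether the arrays came from separate cultures. Every p-value below therefore rests on the spread between these 2 arrays, mostly pooled over all genes, and that spread may be technical.

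Interferons bind receptors at the cell surface and switch on the kinases JAK1 and TYK2, which phosphorylate STAT proteins. STAT2 and IRF9 belong to a complex that binds the interferon-stimulated response element (ISRE) in promoters of antiviral genes, while interferon gamma acts mainly through the gamma-activated site (GAS). The induced proteins sense viral RNA, block its translation, degrade it, trap budding particles or prepare peptides for T cells, and epithelial cells such as those of the renal tubule can make them without immune cells present.

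The promoters of several members carry the response element, and they are shown because the element is what the set is known for and because the data below bear on genes that hold it and genes that do not. RefSeq promoter windows, with 250 bases before and 50 after the transcription start on GRCm38.p6, were found for 27 of the 33 genes. The genes without one were Mx1, Mx2, Parp9, Parp14, Oas2 and Usp18. The letters searched for ISRE were GAAANNGAAA, on both strands with overlaps counted. They occurred in 13 of 27 members (48.1%), against 3.72% of the 10710 measured genes with a window and 3.44% of 32851 windows. For GAS, TTCNNNGAA occurred in 9 of 27 members (33.3%), against 8.56% of measured genes and 8.30% of windows, and 4 members held both motifs. In 9 members an ISRE match lay before the start, and in 4 (Ddx58, Eif2ak2, Ifih1 and Ifitm3) only after it. Isg15 had 3 overlapping matches between 78 and 57 bases before the start, Ifit1 had matches at 104 to 95 and 85 to 76, and Ifit3 at 156 to 147 and 122 to 113. In Oas1a a pair of overlapping matches lay 20 to 5 bases before the start, in Gbp3 45 to 30, and in Stat2 a single match lay 222 to 213 bases before it. The 250 bases before the start are given 5′ to 3′ on the strand of the gene, in lower case, with ISRE matches in capitals. They are Isg15 (chr4:156200819-156201068, minus strand), Ifit1 (chr19:34640639-34640888, plus), Ifit3 (chr19:34583279-34583528, plus), Stat2 (chr10:128270248-128270497, plus), Oas1a (chr5:120907526-120907775, minus), the upstream start of Gbp3 (chr3:142559794-142560043, plus), and, as members with no match, Xaf1 (chr11:72301379-72301628, plus) and Psmb9 (chr17:34187331-34187580, minus). A match of letters is a description of the sequence and not a measured binding site.
Isg15: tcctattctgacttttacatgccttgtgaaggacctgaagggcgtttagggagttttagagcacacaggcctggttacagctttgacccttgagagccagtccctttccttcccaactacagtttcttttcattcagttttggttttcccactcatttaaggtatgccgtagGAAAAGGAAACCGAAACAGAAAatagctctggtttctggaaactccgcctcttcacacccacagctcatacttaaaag
Ifit1: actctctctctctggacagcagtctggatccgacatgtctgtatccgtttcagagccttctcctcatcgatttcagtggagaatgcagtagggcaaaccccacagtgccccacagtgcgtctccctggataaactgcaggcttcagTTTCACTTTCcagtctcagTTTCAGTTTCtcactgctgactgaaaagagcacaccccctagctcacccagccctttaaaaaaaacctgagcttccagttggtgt
Ifit3: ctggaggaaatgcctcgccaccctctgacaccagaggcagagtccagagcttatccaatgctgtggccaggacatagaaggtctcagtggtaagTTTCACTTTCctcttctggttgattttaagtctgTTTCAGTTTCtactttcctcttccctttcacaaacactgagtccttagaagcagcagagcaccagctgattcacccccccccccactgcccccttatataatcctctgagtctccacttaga
Stat2: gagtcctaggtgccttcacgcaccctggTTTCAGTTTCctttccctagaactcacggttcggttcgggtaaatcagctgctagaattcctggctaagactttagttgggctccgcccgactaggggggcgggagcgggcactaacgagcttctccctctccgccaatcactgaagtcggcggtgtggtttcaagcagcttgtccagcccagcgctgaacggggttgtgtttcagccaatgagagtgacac
Oas1a: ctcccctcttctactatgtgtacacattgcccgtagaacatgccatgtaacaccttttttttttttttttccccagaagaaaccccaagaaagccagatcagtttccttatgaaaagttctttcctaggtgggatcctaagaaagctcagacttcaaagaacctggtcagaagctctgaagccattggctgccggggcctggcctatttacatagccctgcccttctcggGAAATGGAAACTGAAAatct
Gbp3: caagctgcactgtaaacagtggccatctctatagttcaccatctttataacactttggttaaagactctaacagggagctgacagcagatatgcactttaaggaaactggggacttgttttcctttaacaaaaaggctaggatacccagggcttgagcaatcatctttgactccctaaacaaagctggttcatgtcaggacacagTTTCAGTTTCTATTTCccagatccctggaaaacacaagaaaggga
Xaf1: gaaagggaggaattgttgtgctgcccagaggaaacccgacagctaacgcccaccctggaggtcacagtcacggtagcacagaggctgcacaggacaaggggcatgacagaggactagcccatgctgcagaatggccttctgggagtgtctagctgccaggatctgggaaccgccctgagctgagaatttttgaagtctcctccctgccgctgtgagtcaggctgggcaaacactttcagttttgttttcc
Psmb9: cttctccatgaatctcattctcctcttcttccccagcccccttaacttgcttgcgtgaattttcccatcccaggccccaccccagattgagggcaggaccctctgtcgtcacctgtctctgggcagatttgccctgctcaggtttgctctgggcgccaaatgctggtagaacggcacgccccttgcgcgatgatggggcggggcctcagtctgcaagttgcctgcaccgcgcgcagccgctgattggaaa

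After FGF23 none of the 33 genes differed from the unstimulated cells past the test. In limma, with Benjamini-Hochberg adjustment over all 19221 genes and a threshold of 0.05, 0 of 33 members were higher and 0 lower. Over all genes the same test called 9 higher (0.0468%) and 0 lower (0%). No member had an unadjusted p under 0.05 either, where 2.60% of all genes were higher and 1.31% lower at that level. These results and the ranges that follow rest on the brightest kept probe of each gene. A dimmer second probe of Ddx58 had a mean log2 ratio of -0.32, lower than any member's mean here. Mean ratios of FGF23 over unstimulated lay between 0.892-fold for Xaf1 and 1.11-fold for Psmb9, and limma's 95% interval of every member lay between 0.667-fold and 1.5-fold. At log2 scale, 24 of 33 members had a mean ratio within 0.1 of 0, against 76.8% of all genes. The smallest difference that passed the test anywhere on the arrays was a log2 ratio of 0.59. Spike-in controls had a slope of observed on expected log ratios of 0.851 and 0.852 on the arrays, per the file headers, a slope under 1, at which measured folds understate true ones.

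**Figure D1:**
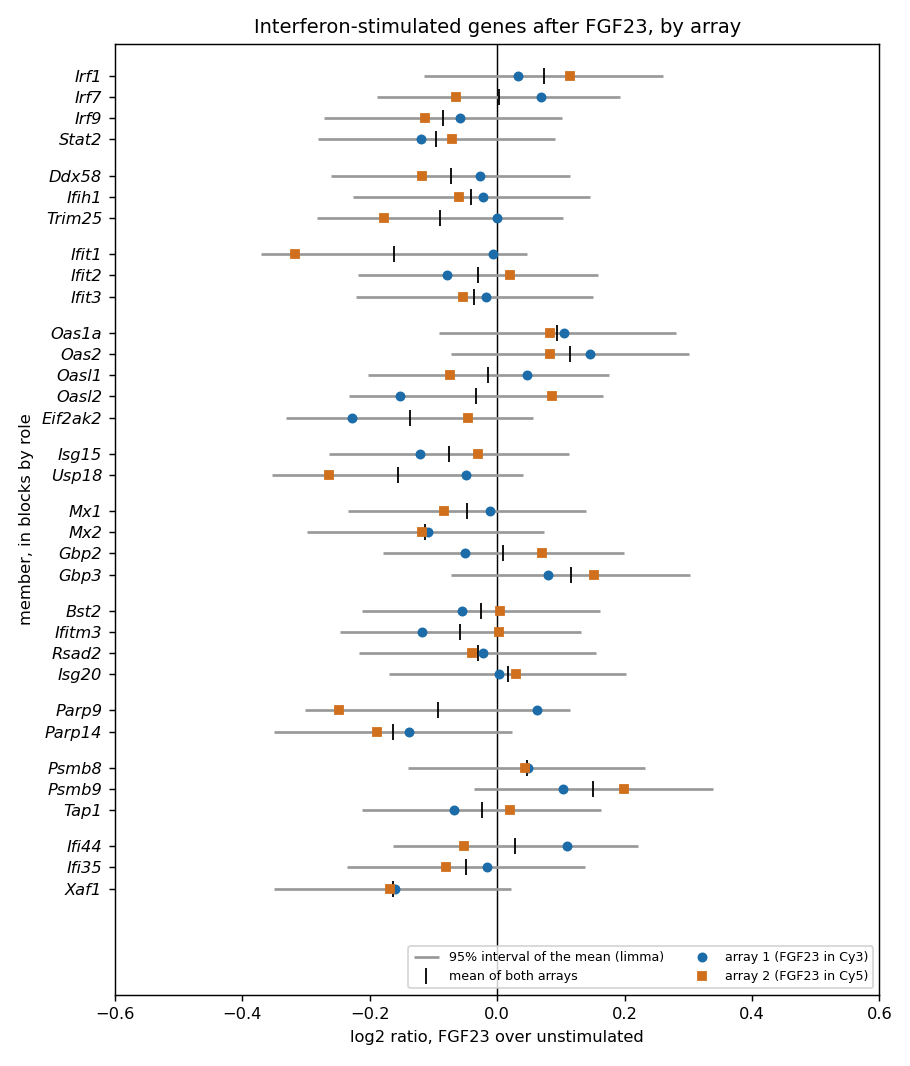
The log2 ratio of FGF23 over unstimulated (horizontal axis) is plotted for each of the 33 genes (vertical axis), with a circle for array 1, a square for array 2, a tick for their mean and a bar for limma's 95% interval. Every interval crosses 0, and the means lie between -0.16 (Xaf1) and 0.15 (Psmb9).

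The genes were not silent in either condition. With FGF23 and without it, all 33 were well above background on each array, and 29 lay in the 3 brightest of 10 equal groups of measured genes, ordered by mean log2 intensity. Of these, 10 were in the brightest group and 15 in the next. Isg15, a ubiquitin-like modifier, had log2 intensities of 16.29 and 16.27 with FGF23 on arrays 1 and 2 and of 16.41 and 16.30 without. Tap1, a subunit of the peptide transporter, had 7.61 and 7.83 with FGF23 and 7.68 and 7.81 without. Intensity also depends on the probe, so these values give no order of the genes' RNA levels. With signal above background in both conditions, each gene could have shown a decrease as well as an increase.

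Across the set the ratios sat slightly below those of all genes. The median log2 ratio of the 33 members was -0.036, at -0.022 on array 1 and -0.052 on array 2. All measured genes had a median of -0.00064, at -0.012 and 0.015. Below 0 on both arrays were 16 of 33 members (48.5%), against 22.3% of all genes, and above 0 on both were 7 (21.2%), against 23.9%. The remaining 10 changed sign between arrays. In the 3 brightest groups, 15 of 29 members lay below 0 on each array and 6 above, against 19.7% and 21.3% of their 5766 genes. These counts carry no test and describe a set whose members share regulators and were chosen with earlier results of these data known. With each array centred on its median in place of the loess fit, no member had 1 sign on both arrays.

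Set against genes of like brightness, 28 members lay inside the 5th to 95th percentile of their group, 5 lay below it and 0 above. The 5 were Xaf1, Parp14, Ifit1, Usp18 and Eif2ak2, with mean log2 ratios from -0.16 to -0.14. Usp18 and Xaf1 were in the brightest group, where the 5th percentile was -0.10. The lower bound was -0.12 both for Parp14 and Ifit1 and, in the next dimmer group, for Eif2ak2. On the positive side, Psmb9 at 0.15 came closest to its upper bound, also 0.15, and Oas1a at 0.094 lay just inside 0.097.

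**Figure D2:**
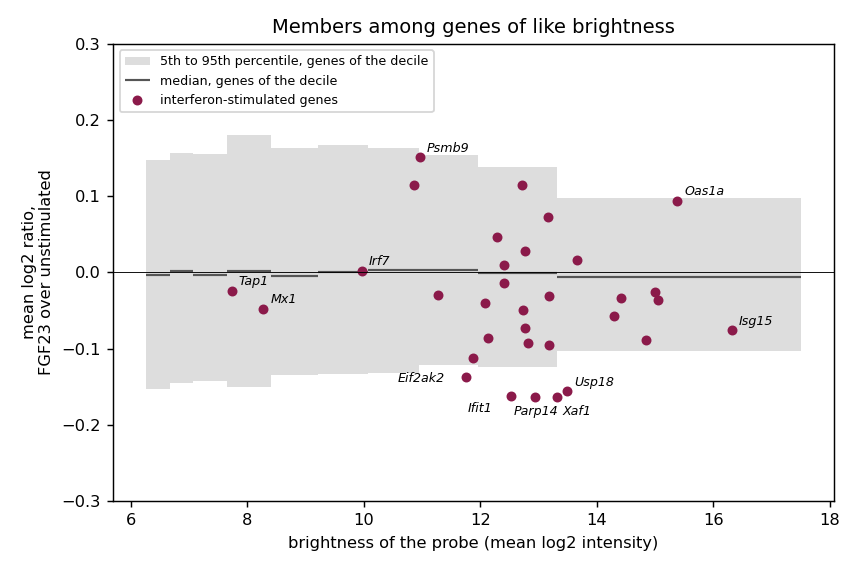
The mean log2 ratio of FGF23 over unstimulated (vertical axis) is plotted against the mean log2 intensity of the probe (horizontal axis) for the 33 genes, over grey bands from the 5th to the 95th percentile of all genes in each of 10 brightness groups and a line at each group's median. Of the points, 28 lie inside the bands and 5 below them.

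The transcription factors that carry the interferon signal were nearly level. Stat2, a subunit of the factor that binds ISRE, had log2 intensities of 13.07 and 13.21 with FGF23 on arrays 1 and 2 and of 13.19 and 13.28 without, so the conditions overlapped between arrays. Intensities were not normalized between arrays, so overlap, here and below, also depends on the level of each array. Most genes given with intensities were picked for ratios of 1 sign on both arrays, which favours a lack of overlap. The share of all genes without overlap is not given here. The log2 ratios of Stat2 were -0.12 and -0.071 (mean -0.095 ± 0.035, SD, n = 2 arrays). Its DNA-binding partner Irf9 had -0.058 and -0.11 (mean -0.086 ± 0.039). Both were thus below 0 on each array, by amounts that did not pass. Irf1, an activator induced mainly by interferon gamma, had 0.032 and 0.11 (mean 0.073 ± 0.058). Irf7, which amplifies production of type I interferon, had 0.069 and -0.065 (mean 0.0022 ± 0.095), and took opposite signs on the arrays.

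The RNA sensors and their cofactor were below 0 on both arrays in each case, without passing. Ddx58, which encodes the sensor RIG-I, had log2 ratios of -0.027 and -0.12 (mean -0.073 ± 0.065). A second, dimmer probe of Ddx58 had -0.27 and -0.38 (mean -0.32), the lowest mean of any kept member probe. Ifih1, which encodes the long-RNA sensor MDA5, had -0.022 and -0.060 (mean -0.041 ± 0.027), and its second probe had a mean of -0.015. Trim25, a ubiquitin ligase that acts with RIG-I, had -0.00052 and -0.18 (mean -0.089 ± 0.13). Another Trim25 probe, whose ends lie 6226 bases apart on mm9, had -0.71 and 0.62, so that its value followed the dye or the array and not the treatment.

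Among effectors that act on viral RNA, the IFIT proteins bind RNA with foreign ends, and of their 3 genes Ifit1 differed most between arrays. Ifit1 had log2 intensities of 12.51 and 12.38 with FGF23 and of 12.52 and 12.69 without, and ratios of -0.0063 and -0.32 (mean -0.16 ± 0.22). Array 2 alone gave the low mean of Ifit1. Ifit2 had -0.079 and 0.020 (mean -0.030 ± 0.070) and Ifit3 had -0.018 and -0.054 (mean -0.036 ± 0.025). The probes of the 3 genes lie near each other on chromosome 19 of mm9, between 34650244 (Ifit2) and 34723855 (Ifit1).

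The oligoadenylate synthetases make the second messenger that activates RNase L, and their members did not move together. Oas1a had log2 intensities of 15.41 and 15.45 with FGF23 and of 15.31 and 15.36 without, so the conditions did not overlap. Its ratios were 0.11 and 0.083 (mean 0.094 ± 0.016, 95% interval -0.092 to 0.28). A second probe of Oas1a, also bright, had a mean of -0.012, so the direction was not shared by both probes. Oas2 had log2 intensities of 10.91 and 10.94 with FGF23 and of 10.76 and 10.86 without, again with no overlap. Its ratios were 0.15 and 0.083 (mean 0.11 ± 0.044, 95% interval -0.072 to 0.30). Neither gene passed, with limma adjusted p of 0.9999 for both. Of the OAS-like genes, Oasl1 had 0.047 and -0.074 and Oasl2 had -0.15 and 0.086, both with opposite signs on the arrays. Eif2ak2, the kinase PKR that halts translation when it binds double-stranded RNA, had -0.23 and -0.046 (mean -0.14 ± 0.13).

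The ISG15 pair was below 0 on both arrays. Isg15 had ratios of -0.12 and -0.030 (mean -0.076 ± 0.065), and its second probe had a mean of -0.11. Usp18, the protease that removes ISG15 from proteins and also damps receptor signalling, had -0.049 and -0.26 (mean -0.16 ± 0.15). As with Ifit1, most of the low mean of Usp18 came from array 2.

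The antiviral GTPases pointed both ways. Mx2 had log2 intensities of 11.79 and 11.86 with FGF23 and of 11.90 and 11.98 without, with no overlap. Its ratios were -0.11 and -0.12 (mean -0.11 ± 0.0066, 95% interval -0.30 to 0.073). Mx1, its neighbour on chromosome 16, had -0.011 and -0.084 (mean -0.048 ± 0.051). Gbp3, a guanylate-binding protein that acts against intracellular microbes, had log2 intensities of 12.72 and 12.83 with FGF23 and of 12.64 and 12.68 without, also with no overlap. Its ratios were 0.079 and 0.15 (mean 0.12 ± 0.051, 95% interval -0.072 to 0.30), while Gbp2, near it on chromosome 3, had -0.051 and 0.071. None passed, and the limma adjusted p was 0.9999 for Mx2 and for Gbp3.

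Restriction factors at membranes, and the enzymes grouped with them, were close to level. Bst2, the tether that holds budding virions, had ratios of -0.055 and 0.0046 (mean -0.025 ± 0.042). Ifitm3, which blocks viral fusion in endosomes, was printed 10 times on each array. Its spots ran from -0.14 to -0.11 on array 1 and from -0.022 to 0.021 on array 2, so for this gene the arrays differed by more than the spots within an array. Rsad2 (viperin), which makes a chain-terminating nucleotide, had -0.022 and -0.039 (mean -0.031 ± 0.012). The exonuclease gene Isg20 had 0.0035 and 0.029 (mean 0.016 ± 0.018), and its second probe had 0.014.

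Both PARP enzymes had low means, with Parp14 the steadier. Parp14, an ADP-ribosyltransferase, had log2 intensities of 12.83 and 12.89 with FGF23 and of 12.97 and 13.08 without, which did not overlap. Its ratios were -0.14 and -0.19 (mean -0.16 ± 0.036), with a 95% interval of -0.35 to 0.023. Parp9, which lies near it on chromosome 16 and forms a complex with a ubiquitin ligase, had 0.062 and -0.25 (mean -0.093 ± 0.22). A dim second probe of Parp9 had a mean of 0.077.

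Peptide generation for MHC class I held the highest member. Psmb9, an inducible catalytic subunit of the immunoproteasome, had log2 intensities of 10.97 and 11.11 with FGF23 and of 10.87 and 10.91 without, with no overlap. Its ratios were 0.10 and 0.20 (mean 0.15 ± 0.067, 95% interval -0.037 to 0.34). A second Psmb9 probe was not well above background. Psmb8, another such subunit, had 0.049 and 0.044 (mean 0.046 ± 0.0029). Tap1, which carries the peptides into the endoplasmic reticulum and whose RefSeq window overlaps that of Psmb9 on the opposite strand, had -0.068 and 0.019 (mean -0.024 ± 0.062). Its 10 spots, on a dim probe, ran from -0.28 to 0.11 on array 1, and the 8 used on array 2 from -0.16 to 0.18. Probes of all 3 genes lie within chromosome 17 from 34319174 to 34337830 (mm9).

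Of the other induced genes, Xaf1, which promotes cell death, had the lowest mean of the set. Its log2 intensities were 13.23 and 13.26 with FGF23 and 13.39 and 13.43 without, with no overlap. Its ratios were -0.16 and -0.17 (mean -0.16 ± 0.0048), with a 95% interval of -0.35 to 0.022, and a dimmer second probe had -0.13 and -0.22. The unadjusted p of limma was 0.079 for Xaf1 and 0.080 for Parp14, and both adjusted p were 0.9999. Ifi35 had -0.017 and -0.081 (mean -0.049 ± 0.045), and Ifi44 had 0.11 and -0.052 (mean 0.028 ± 0.11).

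The dye swap gives a treatment part, the mean of both arrays, and a remainder, called the dye part, that changes sign when the ratios are turned. With 1 array per dye orientation, the dye part cannot be told apart from other differences between the arrays. The dye part was larger than the treatment part in 10 of 33 members, against 53.8% of all genes. By arithmetic these are the genes whose sign changed between arrays, so the count adds nothing to that one. The median absolute dye part was 0.041 in members and 0.062 in all genes, and the median absolute mean ratio was 0.073 and 0.054. Ifit1 and Parp9 had the widest dye parts of the set, both at -0.16 (Cy5 over Cy3). Across genes, which are not replicates and share the arrays, the ratios of array 1 and array 2 had a Pearson correlation of 0.27 over the members and of -0.12 over all genes.

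**Figure D3:**
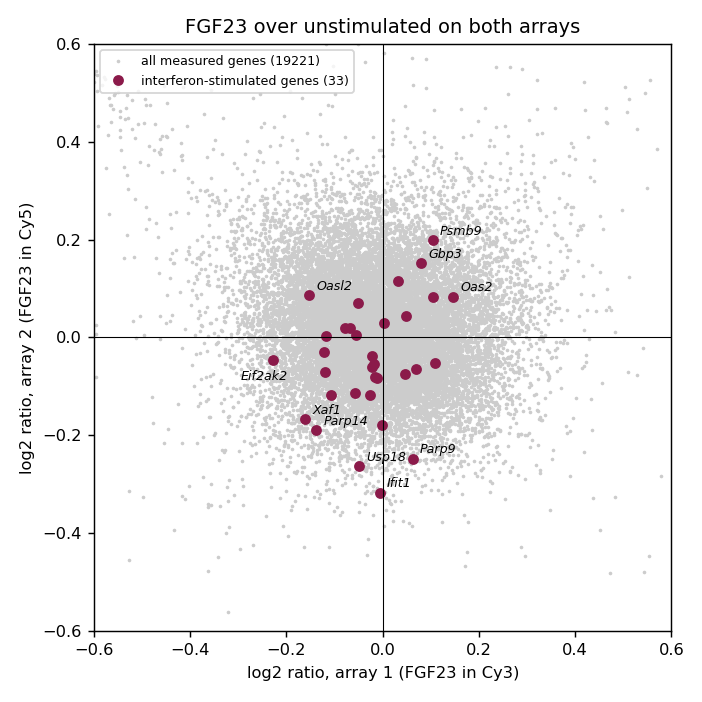
The log2 ratio of FGF23 over unstimulated on array 2 (vertical axis) is plotted against that on array 1 (horizontal axis), in grey for the 19221 measured genes and in colour for the 33 interferon-stimulated genes. Of the members, 16 lie in the lower left quadrant, 7 in the upper right and 10 elsewhere, and 105 genes fall outside the plotted range of 0.6 either way.

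The ratios of members with the response element in their promoter window overlapped those of members without it. The 13 genes with ISRE letters had a median log2 ratio of -0.041, with 8 below 0 on both arrays and 2 above. The 14 with a window and no match had a median of -0.019, with 4 below and 4 above. Over all 398 measured genes with the letters the median was -0.0042, with 27.9% below 0 on both arrays and 23.9% above. Isg15, with 3 matches, and Ifit1, with a pair, were below 0 on both arrays, whereas Oas1a and Gbp3, each with a pair, were above. The difference between these groups was not tested.

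Genes upstream of the members were measured too, and none passed in either direction. Of the interferon ligands, 8 of 13 genes on the array were measured, with a median log2 ratio of 0.042, which was -0.0048 on array 1 and 0.053 on array 2 and so had no common sign. Ifnb1, the type I interferon that many non-immune cells make first, was well above background in all 4 dye channels, at 0.0070 and 0.091 (mean 0.049 ± 0.060). Ifnab (-0.14 ± 0.072) and Ifnk (0.10 ± 0.17) lay farthest from 0, both on dim probes.

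All 6 interferon receptor genes had means above 0, with a median of 0.099 (array 1, 0.059, and array 2, 0.15), and 5 of 6 were above 0 on both arrays. Il10rb, the shared chain of the interferon lambda receptor, had 0.35 and 0.15 (mean 0.25 ± 0.14). Ifnlr1, the chain that binds interferon lambda, had 0.14 and 0.31 (mean 0.23 ± 0.12). These were the 2 receptor genes with an unadjusted limma p under 0.05, at 0.016 and 0.025, and the adjusted p was 0.9999 for each. Ifnar1 had 0.13 ± 0.066, Ifnar2 0.064 ± 0.047, Ifngr1 0.056 ± 0.035 and Ifngr2 0.045 ± 0.14. So the receptor genes lay to the other side of 0 from the median of the genes that their signal induces. The difference between the lists was not tested.

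Of 15 JAK-STAT genes and inhibitors, 0 passed, 7 were above 0 on both arrays and 4 below, with a median of 0.039 (array 1, 0.022, and array 2, 0.033). Ptpn6, a phosphatase that restrains cytokine signalling, had 0.16 ± 0.033, Tyk2 had 0.097 ± 0.13 and Jak1 had -0.0090 ± 0.079.

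Of 7 other IRF factors and cofactors 0 passed, with a median of 0.030 (array 1, 0.062, and array 2, 0.047). Irf2bp2 had 0.12 ± 0.041, and Irf3, which starts transcription of Ifnb1, had -0.017 ± 0.11. Among 16 nucleic acid sensors and adaptors the median was -0.017 and 0 passed. That median changed sign between arrays, at -0.028 on array 1 and 0.014 on array 2. Zbp1, a sensor of Z-form nucleic acids, had 0.10 ± 0.073, and the adaptor Myd88 had -0.087 ± 0.045.

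MHC class I presentation, with 14 genes, had a median of -0.0094, also with a change of sign (0.012 on array 1 and -0.046 on array 2), and 0 passed. The peptide-trimming enzyme Erap1 had -0.24 and -0.13 (mean -0.19 ± 0.077), H2-Q4 had -0.10 ± 0.039, and B2m, the light chain of class I, had 0.040 ± 0.14. A further 51 interferon-inducible genes had a median of -0.043, with 18 below 0 on both arrays (35.3%) and 9 above (17.6%), and 0 passed. Ifi27l2a, a strongly interferon-inducible gene, had 0.22 and 0.25 (mean 0.23 ± 0.020), and Daxx, a histone chaperone, had -0.20 and -0.21 (mean -0.21 ± 0.0061). The median of these 51 genes came mostly from array 1, at -0.058 against -0.0066 on array 2, whereas that of the 33 was the lower on array 2.

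**Figure D4:**
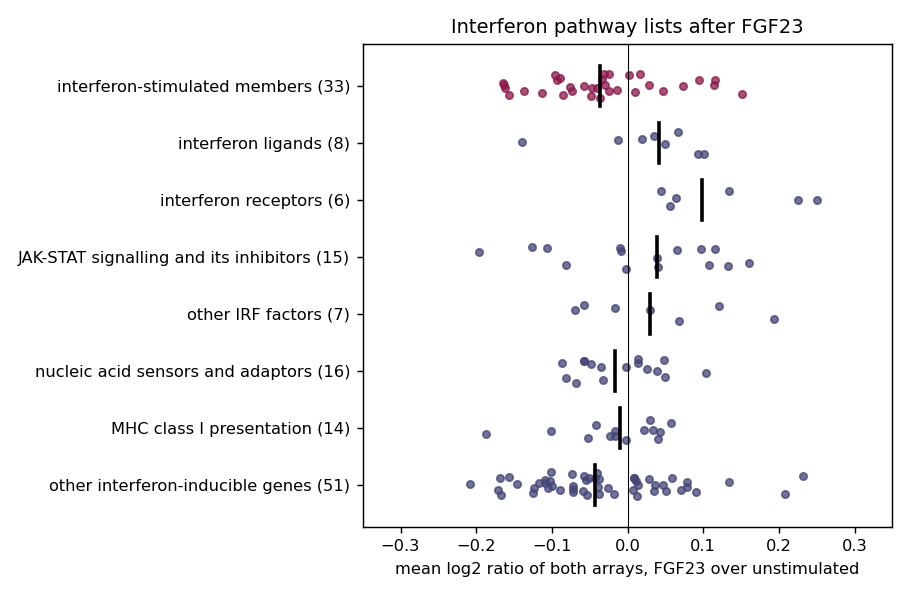
Mean log2 ratios of FGF23 over unstimulated (horizontal axis) are plotted for the 33 interferon-stimulated genes and for 7 lists of other pathway genes (vertical axis, number of measured genes in brackets), with 1 point per gene, spread vertically for legibility, and a bar at the median. Medians run from -0.043 (other interferon-inducible genes) to 0.099 (receptors).

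Markers of the tubule line were mostly measured, and so were some markers of other cells. Of 18 collecting duct and ureteric markers on the array 14 were measured, among them the keratins Krt8 and Krt18, Hoxb7, Pax8 and, on a dim probe, the water channel Aqp2, while Aqp3, Aqp4, Avpr2 and Hsd11b2 were not well above background. Macrophage and dendritic markers were measured for 6 of 13 (median -0.016), namely Csf1r, Cd68, Itgam, Cd14, Siglech and Flt3. Their mean log2 intensities ran from 6.80 (Flt3) to 15.74 (Siglech), with Csf1r at 11.45, Itgam at 11.90 and Cd14 at 10.10. The defining Ptprc, Lyz2, C1qa and Emr1 (now Adgre1) did not clear the background on both arrays in any condition. The part of other cells in the members' values was not tested. Of the remaining markers 4 of 10 for lymphocytes and NK cells, 1 of 8 for fibroblasts and 2 of 7 for endothelium were measured, and no marker of any list passed. On arrays 1 and 2, respectively, 48.2% and 48.7% of spots stood well above background in Cy3, as did 54.2% and 55.2% in Cy5. No spot was saturated.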

How the data were processed

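Two-colour scanner output was analysed for both arrays. Per spot and dye the deposited files held mean and background-subtracted intensity values on a linear scale; per the file headers, the software was Feature Extraction 11.5.1.1. A deposited log10 ratio (Cy5 over Cy3) came with them, background-subtracted and dye-normalized by that software per the file headers, and so did a deposited p-value of that ratio, which was not used as a test. In limma 3.58.1 (R 4.3.3), mean signals were corrected with normexp (offset 50), normalized by loess with control spots at weight 0, and turned to FGF23 over unstimulated by the dyes in the labels. Outlier and control spots were left out, spots of a probe averaged, and probes kept where 1 condition or both were well above background on each array (26943 of 55681). The brightest kept probe stood for a gene. Log2 intensities are the normalized values of each dye.

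The 33 members had 43 probes, of which 41 were kept, and 61 spots per array, of which 2 were outliers. Symbols are those of the array annotation, and RefSeq gave 38 of the 43 probes the same symbol and left 5 unmatched. Probe positions are on mm9, per the file headers, and promoters on GRCm38.p6. Where probes fall in exons or UTRs was not analysed here.

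The test was lmFit and eBayes with 1 residual degree of freedom, so intervals and p-values rest mostly on a spread shared over all genes (12.0 prior degrees of freedom, prior SD 0.13) and not on a member's own SD. No dye term was fitted. On simulated ratios of 19221 genes with 200 changed, it recovered 100% of 2-fold and 99% of 1.5-fold changes, and called 39 unchanged genes. The simulated arrays were independent and held no dye part, whereas the measured arrays had a correlation of -0.12 over all genes. Only 9 genes passed in the measured data, the smallest at a log2 ratio of 0.59. The simulated shares therefore do not give the power to find a 1.5-fold change here. Members, pathway lists and markers were chosen with earlier results of these data known. Named were all members, with full detail for the 8 whose smaller ratio of 1 sign on both arrays was largest, and of each pathway list the 2 genes with the largest mean ratio and a set of receptors, kinases and factors. Not every gene under this rule is reported here. Alternatives were Agilent's log ratio, offset 0, median centring, other filters, averaged probes, a trended robust prior and each array alone.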

Additional observations from a re-analysis of the deposited data

How the results depend on the processing

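No member passed the test under any of the 7 processing alternatives, with the lowest limma adjusted p at 0.97 (Ddx58, probes averaged, log2 ratio -0.20, the 1 member then under an unadjusted p of 0.05). Of 231 member values under these alternatives 5 had another sign, those of Irf7, Gbp2 and Isg20, with values from -0.0071 to -0.0017 there. Over all genes, those past the test numbered 5 with offset 0, 0 with median centring, 0 with Agilent's log ratio, 17 with averaged probes (16 higher, 1 lower) and 79 with a trended robust prior (59 higher, 20 lower), against 9. The count of 16 members below 0 on both arrays became 0 with median centring, where 3.34% of all genes were below on both, and was 15 to 17 under the others. The members' median was -0.056 with median centring, -0.036 to -0.031 under the others, and -0.052 to -0.022 on single arrays. Of 56 pathway medians, 10 moved by more than the spread between arrays. These were those of JAK-STAT genes (0.027 with median centring, 0.023 with averaged probes) and other IRF factors (0.017 with median centring, 0.0064 with no filter), and, on a single array, those of ligands, JAK-STAT genes, other IRF factors (both arrays), sensors and other inducible genes. What caused these differences was not tested. No paired analysis was possible because each array is itself a direct comparison of both conditions. The number of arrays limits the precision.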
